A study of Mus musculus with 6 samples.

Results

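Histones and DNA carry small chemical groups that enzymes add and remove. Lysine methyltransferases (KMT) place methyl groups on histone tails and lysine demethylases (KDM) take them off. Histone deacetylases (HDAC) and sirtuins strip acetyl groups, the former with a zinc or related metal ion and the latter with NAD. DNA methyltransferases (DNMT) methylate cytosine, and TET enzymes oxidise that methyl group. The marks are known to hold genes open or shut in stem cells, in bone-forming cells and in blood cells.

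The genes described here are the 52 genes whose symbol begins with Kmt, Kdm or Dnmt and a digit, or is that of a numbered HDAC, of a sirtuin or of a TET enzyme, out of 19938 genes with a named array feature. They comprise 8 KMT, 18 KDM, 11 HDAC, 7 sirtuin, 5 DNMT and 3 TET symbols. The symbols alone chose them. One of the 5 DNMT symbols, Dnmt3aos, is a transcript antisense to Dnmt3a and no enzyme, and Dnmt3l is a cofactor without catalytic activity. Methyltransferases named otherwise, such as Ezh2, are given with the partners of these enzymes. For 6 of the 52 genes the array has more than 1 feature, and the brightest was read.

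RNA was taken at postnatal day 28 from calvarial sutures sorted into Axin2+/GFP+ cells (3 samples) and Axin2-/GFP- cells (3 samples). Mice of both groups had a mixed background of C57BL/6J, CD-1 and B6CBAF2, carried the Axin2rtTA and TRE-H2BGFP transgenes and received doxycycline from postnatal day 25 to 28. Axin2 sequences drive rtTA, which with doxycycline switches on a histone-GFP fusion, so the sort separates cells that had Axin2 activity in those days from cells without detectable GFP. Each sample pooled 6 to 8 mice. The study used both sexes, and the makeup of a pool is not given in the sources used here. Cells were separated on GFP brightness, and the methods name no antibody against blood cells.

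Values are deposited log2 expression values of 1 array per sample, and a log2 change is the Axin2+/GFP+ mean minus the Axin2-/GFP- mean. Correlations over all genes ran from 0.910 to 0.920 among Axin2+/GFP+ samples and from 0.967 to 0.971 among Axin2-/GFP- samples. The distributions were not matched: upper quartiles were 3.63 to 3.72 in the former and 3.94 to 3.98 in the latter. The median log2 change over all genes was 0.14, and it was 0.30 for 1190 olfactory and vomeronasal receptor genes, which mark the dim end of the array. Axin2 itself, whose activity the reporter reads, had a mean log2 value of 2.55 and a log2 change of 0.55, which was not called. The labels' suture mesenchyme held blood cell transcripts in both sorts. Axin2+/GFP+ cells had 17 of 18 B-lineage markers lower, and their summed level on the log2 scale was 7.20 to 7.32 there against 11.32 to 11.75. Of 16 neutrophil markers 15 were higher, with summed levels of 14.33 to 14.49 against 11.50 to 13.16. Of 13 mesenchyme markers 4 were higher, Col1a1, Col1a2, Col3a1 and Six2, with summed levels of 11.36 to 11.88 against 9.68 to 10.23. Array values have no true 0, so no marker can be called absent. In such sorted bulk samples fewer cells of a type and less RNA per cell cannot be told apart.

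The promoters of the 3 genes with the largest falls for which a start was listed (Kdm6a, Kdm3a, Hdac5), and that of Kmt5a, which leaned the other way, are shown as the start regions of genes whose changes had opposite signs. Each window of 300 bases runs from 250 before to 50 after the RefSeq start listed first for the gene (GRCm38.p6), 5′ to 3′ on the gene's strand. Capitals mark the GC box GGGCGG and the CCAAT box on either strand and the E-box CACGTG. The choice was made after the values were seen. The windows are Kdm6a at chrX:18162325-18162624 (+ strand), Kdm3a at chr6:71632868-71633167 (- strand), Hdac5 at chr11:102230123-102230422 (- strand) and Kmt5a at chr5:124439680-124439979 (+ strand).
Kdm6a: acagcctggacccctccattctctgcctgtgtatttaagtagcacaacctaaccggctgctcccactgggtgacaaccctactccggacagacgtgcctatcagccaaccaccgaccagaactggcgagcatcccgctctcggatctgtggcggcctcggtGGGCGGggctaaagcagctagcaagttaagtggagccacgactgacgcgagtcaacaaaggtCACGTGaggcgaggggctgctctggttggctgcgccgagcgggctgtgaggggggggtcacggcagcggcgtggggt
Kdm3a: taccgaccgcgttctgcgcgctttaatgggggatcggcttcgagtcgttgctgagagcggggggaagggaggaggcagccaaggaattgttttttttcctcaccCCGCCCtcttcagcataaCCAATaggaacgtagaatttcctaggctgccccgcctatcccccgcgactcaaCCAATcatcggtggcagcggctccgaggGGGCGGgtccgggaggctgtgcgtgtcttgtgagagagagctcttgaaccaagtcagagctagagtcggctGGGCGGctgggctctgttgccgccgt
Hdac5: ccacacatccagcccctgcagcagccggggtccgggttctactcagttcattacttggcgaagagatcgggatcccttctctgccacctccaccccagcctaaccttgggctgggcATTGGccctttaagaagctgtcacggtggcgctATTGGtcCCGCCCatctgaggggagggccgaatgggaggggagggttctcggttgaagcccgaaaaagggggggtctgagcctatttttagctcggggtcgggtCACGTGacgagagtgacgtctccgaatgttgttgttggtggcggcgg
Kmt5a: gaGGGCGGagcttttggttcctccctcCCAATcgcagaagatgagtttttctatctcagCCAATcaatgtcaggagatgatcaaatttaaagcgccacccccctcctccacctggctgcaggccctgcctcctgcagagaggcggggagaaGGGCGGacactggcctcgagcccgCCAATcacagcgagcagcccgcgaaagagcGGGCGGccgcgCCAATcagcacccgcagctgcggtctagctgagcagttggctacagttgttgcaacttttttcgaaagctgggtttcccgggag

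Of the 52 genes 42 had a promoter in the table, 15 of them lower in Axin2+/GFP+ cells and 27 not called. They were rich in CpG, with a median of 19 CpG in the window, 26 in the lower genes and 17 in those not called, against 7 over 27025 promoters. The GC box stood in 28 of the 42 (66.7%), in 11 of 15 (73.3%) and in 17 of 27 (63.0%), against 35.9% of all promoters. The CCAAT box stood in 17 of 42 (40.5%) against 37.9% of all. The E-box stood in 3 of 42 (7.14%), close to the 7.24% of all promoters. The 3 were the lower genes Kdm6a, Hdac5 and Sirt1, and a link of the E-box to the falls was not tested. Also searched on both strands were the TATA box TATAAA, the E2F sites TTTCCCGC and the variant TTTGGCGC, the element CGCGAGA, the ETS site CCGGAAG, the YY1 site GCCATNTTG and the cAMP response element TGACGTCA, and none of these stood in more than 5 of the 42 windows. No motif contains another, and a match is no evidence of binding.

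Genes of histone methylation and deacetylation were called lower or not at all in Axin2+/GFP+ cells, and those of DNA methylation were not called. In limma at an adjusted p of 0.05, 19 of the 52 genes were lower and 0 were higher, against 11.4% of all genes lower, 4.64% higher and 16.0% called in all. At an unadjusted p under 0.05 limma gave 23 of the 52 lower and 4 higher, against 17.6% and 16.3% of all genes. The methods' t-test at that level gave 21 lower and 3 higher, against 13.8% and 14.8% of all genes. The 19 were 4 KMT, 9 KDM, 5 HDAC and 1 sirtuin gene. The median log2 change was -0.53 over the 52, -0.88 for KMT, -0.77 for KDM, -0.52 for HDAC, 0.0025 for sirtuins, 0.10 for DNMT and -0.23 for TET genes. In 24 genes every Axin2+/GFP+ sample lay below every Axin2-/GFP- sample and in 5 genes above, against 17.8% and 23.1% of all genes, or 40.9% without overlap in either direction. For a gene without overlap the exact permutation test over samples (two-sided) gives p = 0.1, the smallest that 3 samples against 3 allow.

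**Figure D1:**
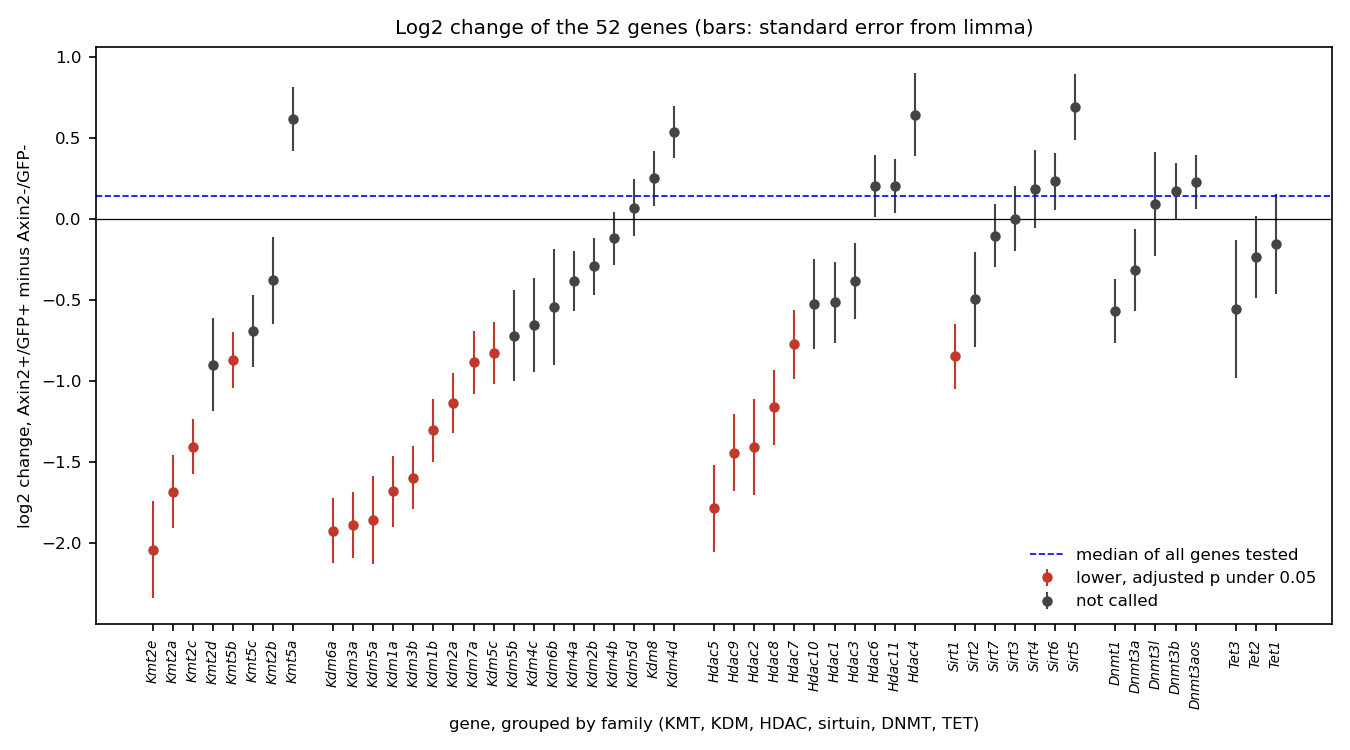
The log2 change between Axin2+/GFP+ and Axin2-/GFP- cells (vertical axis) is plotted for each of the 52 genes (horizontal axis, by family), with bars of 1 standard error from limma and red points for the 19 lower genes. Red points gather at the left of the KMT, KDM and HDAC families, down to -2.04 for Kmt2e, the sirtuins have 1, and the DNMT and TET families have none, their lowest point being Dnmt1 at -0.57.

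The level of a gene on the array went with its change, so the count is also given by signal. Of genes with a mean log2 value of 5 or more, 36.4% of all genes and 6 of 11 enzyme genes were lower. Between 3 and 5 it was 20.6% of all genes and 13 of 33 enzyme genes. Under 3 it was 1.51% and 0 of 8. The median log2 change of the enzyme genes was -0.90, -0.55 and 0.20 in these ranges, and that of all genes was -0.57, -0.19 and 0.25.

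**Figure D2:**
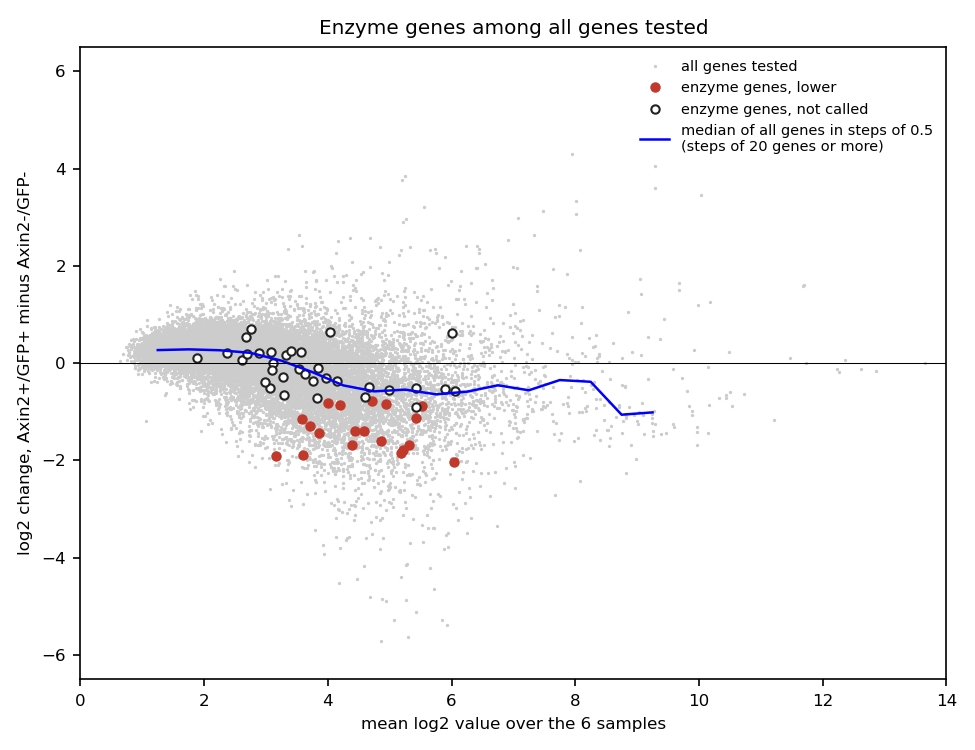
The log2 change (vertical axis) is set against the mean of the 6 log2 values (horizontal axis), with a grey point per gene tested, red points for enzyme genes that were lower, open points for those not called and a blue line for the median of all genes. The blue line falls below 0 at higher signal, and the red points lie under it.

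Among the methyltransferases 3 of the 5 KMT2 genes fell. KMT2 proteins methylate lysine 4 of histone H3 at promoters and enhancers, apart from KMT2E, which reads that mark and has no established activity of its own. Kmt2e was at 5.76, 4.58 and 4.75 in Axin2+/GFP+ replicates 1, 2 and 3 and at 6.98, 6.99 and 7.23 in Axin2-/GFP- replicates 1, 2 and 3. Axin2+/GFP+ replicate 1 was the highest of its group and still below every Axin2-/GFP- sample. The log2 change of -2.04 ± 0.30 (SE, limma adjusted p = 0.00324) corresponds to 4.11-fold and was the largest fall of the 52 genes. Kmt2a, also called MLL1 and needed for blood stem cells, read 4.12, 4.78 and 4.50 against 5.95, 6.06 and 6.44, with no overlap and a log2 change of -1.68 ± 0.22 (SE, limma adjusted p = 0.00208). The enhancer enzyme Kmt2c had values of 4.06, 3.91 and 3.67 against a tight 5.27, 5.32 and 5.26. Its groups lay apart by a log2 change of -1.40 ± 0.17 (SE, limma adjusted p = 0.00139). These 3 calls held under each alternative run except the methods' t-test after adjustment, in which only that of Kmt2c held.

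The remaining KMT2 genes leaned the same way without a call. Kmt2d, a relative of Kmt2c that also acts at enhancers, had values of 4.53, 5.53 and 4.87 and 5.57, 5.79 and 6.26. These were again without overlap, with a log2 change of -0.90 (limma adjusted p = 0.0659). Its call appeared after median centring (-1.01), receptor centring, which sets the receptor genes' median to 0 in each sample (-1.22), the filter on dim genes (-0.90), averaging of its features (-0.86) and without Axin2+/GFP+ replicate 2 (-1.17). In the other Kmt2d feature the change was -0.82, also without overlap. Kmt2b had a log2 change of -0.38 with overlapping groups.

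The KMT5 enzymes, which methylate lysine 20 of histone H4, had changes of both signs. Kmt5b, which adds the second and further methyl groups, was at 3.76, 3.82 and 3.72 in Axin2+/GFP+ and 4.54, 4.87 and 4.49 in Axin2-/GFP- samples. The groups lay apart, with a log2 change of -0.87 ± 0.17 (SE, limma adjusted p = 0.0123). The call ended without Axin2-/GFP- replicate 2 (-0.75) and after quantile normalization (-0.54) or cyclic loess (-0.57). Kmt5c, with the same activity, changed by -0.69 (limma adjusted p = 0.0670) without overlap, and was called lower under the replicate block (-0.69), after both kinds of centring (-0.80 and -1.01) and without Axin2+/GFP+ replicate 3 (-0.87). Kmt5a, which places the initial methyl group and acts in mitosis, was read at 5.99, 6.37 and 6.57 in Axin2+/GFP+ and at 5.68, 5.82 and 5.58 in Axin2-/GFP- samples. Here every Axin2+/GFP+ sample was above every Axin2-/GFP- sample, and the log2 change was 0.62 ± 0.20 (SE, limma adjusted p = 0.0650). It passed as higher under cyclic loess (1.15), under quantile normalization (1.06) and without Axin2+/GFP+ replicate 1 (0.78). After median centring (0.51) and receptor centring (0.30) the change of Kmt5a was smaller and not called.

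Of the 18 demethylases 9 were lower, and they spread over 6 of the 8 numbered subfamilies. Both flavin-dependent KDM1 enzymes, which remove methyl groups from lysine 4 of histone H3, were among them. Kdm1a, or LSD1, was at 3.62, 3.16 and 3.90 against 5.10, 5.27 and 5.34. Its Axin2-/GFP- samples lay close together and more than 1 log2 unit above the others, a log2 change of -1.68 ± 0.22 (SE, limma adjusted p = 0.00179). Kdm1b, known for its part in egg cells, was at 3.07, 3.28 and 2.82 against 4.30, 4.18 and 4.59, with no overlap and a change of -1.30 (adjusted p = 0.00353).

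KDM5 enzymes act on the same mark through a JmjC domain, which uses iron and oxoglutarate as all the demethylases below do. Kdm5a, first known as a partner of the retinoblastoma protein, had 3.77, 4.17 and 4.84 in Axin2+/GFP+ and 6.06, 6.33 and 5.95 in Axin2-/GFP- samples. Axin2+/GFP+ replicate 3 was the highest of its group, and the groups did not overlap; the log2 change was -1.85 ± 0.27 (SE, limma adjusted p = 0.00325). The X-linked Kdm5c had 3.79, 3.59 and 3.40 against 4.53, 4.17 and 4.56 and a log2 change of -0.83 (adjusted p = 0.0215), again with the groups apart. That call ended without Axin2+/GFP+ replicate 3 (-0.73), without Axin2-/GFP- replicate 1 (-0.77) or 3 (-0.76) and after quantile normalization (-0.55) or cyclic loess (-0.58). Kdm5b, at -0.72, was not called in limma; it passed without Axin2+/GFP+ replicate 3 (-0.98) and after receptor centring (-1.04). The Y-linked Kdm5d had a log2 change of 0.07, which turned negative after cyclic loess (-0.12), quantile normalization (-0.06), receptor centring (-0.25) and median centring (-0.04) and without Axin2+/GFP+ replicate 3 (-0.02).

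Kdm6a, or UTX, removes methyl groups from lysine 27 of histone H3, the Polycomb mark, and is X-linked. It read 2.30, 2.17 and 2.15 in Axin2+/GFP+ and 4.45, 3.82 and 4.13 in Axin2-/GFP- samples. The Axin2+/GFP+ samples were all at the dim end, where 26.1% of receptor genes read as bright or brighter, and none came near an Axin2-/GFP- sample. The log2 change was -1.92 ± 0.20 (SE, limma adjusted p = 0.000669). No fold is given, since the Axin2+/GFP+ level was not clear of the dim end. Its relative Kdm6b, an inducible enzyme of the same mark, had a log2 change of -0.54 ± 0.36 (SE, limma adjusted p = 0.304), with Axin2+/GFP+ replicate 3 at 4.69 below all other samples. Without that sample the log2 change of Kdm6b was -0.07. Among genes that read the sexes of a pool, Xist, the RNA of the inactive X chromosome, was at 2.48, 2.93 and 2.15 in Axin2+/GFP+ and 5.10, 4.99 and 3.27 in Axin2-/GFP- samples (log2 change -1.93, adjusted p = 0.0236 from limma). Of the Y-linked genes Eif2s3y was lower, at -0.98 (adjusted p = 0.0201), and Uty, at -0.28 (adjusted p = 0.439), was not called and overlapped between groups. Of X-linked housekeeping genes Eif2s3x was lower, at -1.46 (adjusted p = 0.0197), and Ddx3x, at -0.72 (adjusted p = 0.0624), was not called. The part of the pools' sexes in the X-linked genes was not tested.

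The KDM3 enzymes, which demethylate lysine 9 of histone H3, were both lower. Kdm3a was at 2.73, 2.30 and 2.96 against 4.48, 4.56 and 4.60, with a narrow Axin2-/GFP- group far above the Axin2+/GFP+ samples. Its Axin2+/GFP+ level was also dim, with 10.5% of receptor genes as bright or brighter. The log2 change was -1.88 ± 0.20 (SE, limma adjusted p = 0.000788). Kdm3b had 4.03, 3.80 and 4.35 against 5.77, 5.49 and 5.71, a log2 change of -1.59 (adjusted p = 0.00142) with the groups well apart. Kdm1a, Kdm3a, Kdm3b, Kdm6a and Kmt2c were the 5 of the 19 lower genes whose call held under all 16 alternatives, the methods' t-test with adjustment included.

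Kdm2a, which acts on lysine 36 of histone H3 and binds unmethylated CpG, was at 4.91, 4.71 and 4.96 against 5.82, 6.27 and 5.88. No samples overlapped, and the log2 change was -1.13 (limma adjusted p = 0.00540), with no call under quantile normalization (-0.66) or cyclic loess (-0.67). Its relative Kdm2b, a partner of Polycomb proteins, changed by -0.29 (limma adjusted p = 0.268) with the groups just apart, and passed as lower after receptor centring (-0.61). Kdm7a, an enzyme of lysines 9 and 27 of histone H3, had nearly equal Axin2+/GFP+ values of 5.11, 5.07 and 5.06 against 6.23, 6.04 and 5.62. The groups lay apart by -0.88 (limma adjusted p = 0.0185), and the call ended without Axin2-/GFP- replicate 1 (-0.75) or 2 (-0.85) and after quantile normalization (-0.41) or cyclic loess (-0.41). In its other feature the change was -0.63 with overlapping groups.

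None of the 4 KDM4 enzymes, which act on lysine 9 of histone H3, was called in limma. The log2 changes were -0.38 for Kdm4a, -0.12 for Kdm4b and -0.65 for Kdm4c; Kdm4a passed as lower after receptor centring (-0.70). Kdm4d, best known from the testis, was at 2.89, 3.05 and 2.89 in Axin2+/GFP+ and 2.38, 2.33 and 2.51 in Axin2-/GFP- samples. All Axin2+/GFP+ samples were the higher ones, at a log2 change of 0.54 (limma adjusted p = 0.0529), and in Axin2-/GFP- cells 9.33% of receptor genes read as bright or brighter. Kdm8 had a log2 change of 0.25 (adjusted p = 0.311), which became -0.07 after receptor centring.

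**Figure D3:**
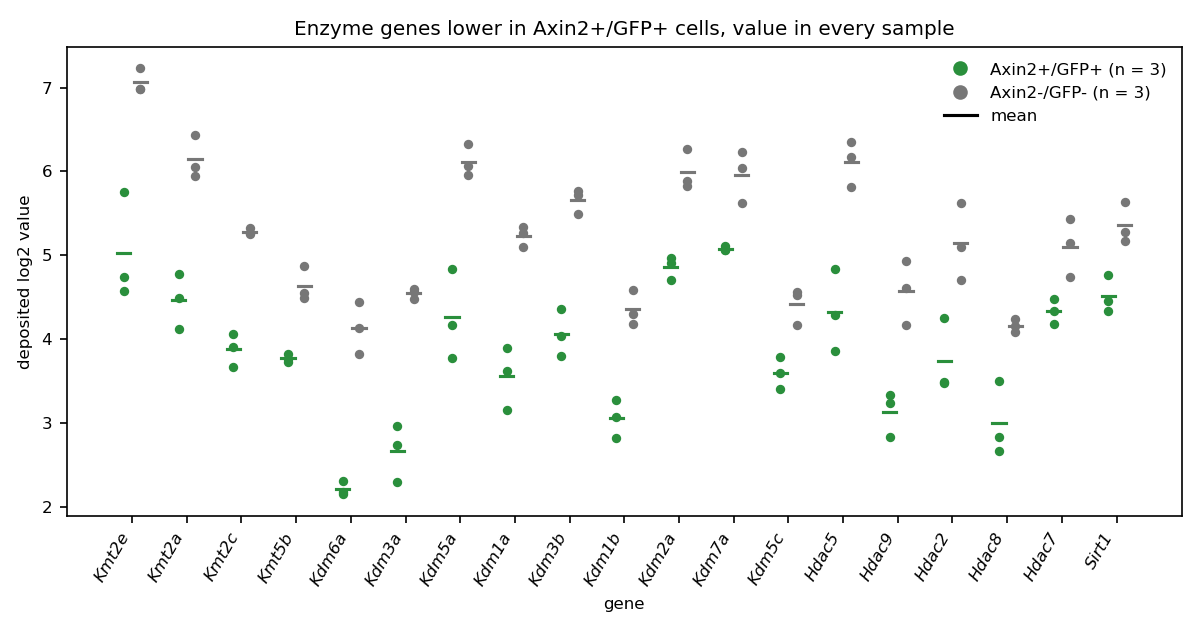
The deposited log2 value (vertical axis) is plotted in every sample for the 19 lower genes (horizontal axis, by family), green for Axin2+/GFP+ and grey for Axin2-/GFP- cells, with a bar at the mean of each 3. In every gene all green points lie below all grey points, with Axin2+/GFP+ replicate 1 of Kmt2e (5.76) and replicate 3 of Kdm5a (4.84) the highest of their groups.

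Class IIa deacetylases, which have weak activity of their own and shuttle between nucleus and cytoplasm to hold down transcription factors such as MEF2, gave 3 lower genes of 4. Hdac5 was at 4.84, 3.86 and 4.29 in Axin2+/GFP+ samples, a wide group, and at 5.81, 6.17 and 6.35 in Axin2-/GFP- samples. The groups stayed about 1 log2 unit apart at their nearest, with a log2 change of -1.78 ± 0.27 (SE, limma adjusted p = 0.00351). Hdac9 was at 2.83, 3.23 and 3.33 against 4.17, 4.61 and 4.93, without overlap, a log2 change of -1.44 ± 0.24 (SE, limma adjusted p = 0.00534). Hdac7, known from lymphocytes and blood vessels, had 4.18, 4.48 and 4.33 against 4.74, 5.14 and 5.43. Its groups were nearer, at a log2 change of -0.77 (adjusted p = 0.0422). The Hdac7 call ended without Axin2+/GFP+ replicate 1 (-0.70), 2 (-0.85) or 3 (-0.77) and without Axin2-/GFP- replicate 2 (-0.75) or 3 (-0.61), with a trend (-0.77) or array weights (-0.76), and after quantile normalization (-0.35) or cyclic loess (-0.39).

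Hdac4, the class IIa enzyme known to restrain cartilage cell growth through Runx2, lay on the other side. It was at 4.18, 4.51 and 4.38 in Axin2+/GFP+ and at 4.08, 3.14 and 3.90 in Axin2-/GFP- samples. The Axin2+/GFP+ samples were above the others, narrowly so for replicate 1 of each group, and the log2 change was 0.65 ± 0.26 (SE, limma adjusted p = 0.116). It passed as higher after quantile normalization (0.94) and was 0.36 without Axin2-/GFP- replicate 2, the lowest sample. After median centring (0.54) and receptor centring (0.33) the change of Hdac4 was smaller and not called. The other Hdac4 feature had a log2 change of 0.39, also without overlap.

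Class I deacetylases other than HDAC8 are the catalytic subunits of large nuclear repressor complexes. Hdac2 was at 4.25, 3.49 and 3.48 in Axin2+/GFP+ and at 5.63, 4.70 and 5.10 in Axin2-/GFP- samples. Replicate 1 was the highest of each group, and the groups did not overlap; the log2 change was -1.40 ± 0.29 (SE, limma adjusted p = 0.0146). The call ended without Axin2-/GFP- replicate 1 (-1.16) and after quantile normalization (-1.06) or cyclic loess (-1.06). The X-linked Hdac8, which deacetylates cohesin, had 3.49, 2.84 and 2.66 against 4.23, 4.16 and 4.08. It fell by a log2 change of -1.16 (adjusted p = 0.0123) with the groups apart, and lost the call without Axin2-/GFP- replicate 1 (-1.12). Hdac1, the close copy of Hdac2, changed by -0.51 (adjusted p = 0.185), overlapped between groups and passed without Axin2+/GFP+ replicate 3 (-0.78). In its other feature the change was -0.63 and the groups did not overlap. Hdac3, the subunit of NCoR complexes, changed by -0.38 and did not pass.

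The remaining deacetylases were not called in limma. Hdac10, which deacetylates polyamines, was at 2.92, 2.91 and 2.59 in Axin2+/GFP+ and 2.70, 3.53 and 3.75 in Axin2-/GFP- samples. Axin2-/GFP- replicate 1 lay among the Axin2+/GFP+ samples, and the log2 change was -0.52 ± 0.28 (SE, limma adjusted p = 0.213). The log2 change was 0.21 for the tubulin deacetylase Hdac6 and 0.21 for Hdac11. Receptor centring turned Hdac6 to -0.11 and Hdac11 to -0.11, and cyclic loess turned Hdac6 to -0.03. Both had overlapping groups.

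Of the 7 sirtuins 1 was lower. Sirt1, the nuclear sirtuin that deacetylates histones, p53 and other factors, was at 4.77, 4.33 and 4.45 against 5.63, 5.17 and 5.28. The groups did not overlap and the log2 change was -0.84 ± 0.20 (SE, limma adjusted p = 0.0242). That call ended without Axin2+/GFP+ replicate 2 (-0.75) or 3 (-0.81), without Axin2-/GFP- replicate 1 (-0.71) or 3 (-0.88) and after quantile normalization (-0.40) or cyclic loess (-0.43). Sirt5, a mitochondrial enzyme that removes succinyl groups, had 3.33, 3.10 and 2.89 in Axin2+/GFP+ and 2.50, 2.11 and 2.63 in Axin2-/GFP- samples. Each Axin2+/GFP+ sample was the higher, at a log2 change of 0.69 ± 0.20 (SE, limma adjusted p = 0.0511), the largest positive change of the 52 genes. It passed as higher with a trend (0.0469), under the filter on dim genes (0.0452), with the mean of a gene's features (0.0494) and without Axin2+/GFP+ replicate 3 (0.0496), adjusted p from limma in each case, at log2 changes of 0.69 to 0.80. Sirt5 was not called after receptor centring (0.38), median centring (0.59), cyclic loess (0.53) or quantile normalization (0.62). In Axin2-/GFP- cells 8.99% of receptor genes read as bright as Sirt5 or brighter. The other sirtuins had log2 changes of -0.49 for Sirt2, 0.00 for Sirt3, 0.19 for Sirt4, 0.24 for Sirt6 and -0.10 for Sirt7, none of them called, and the signs of Sirt3, Sirt4, Sirt6 and Sirt7 depended on the scaling.

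No DNA methyltransferase or TET gene was called in limma. Of these 8 genes limma put 1, Dnmt1, at an unadjusted p under 0.05, as lower. Dnmt1, which copies methylation onto new DNA strands, was at 5.82, 5.53 and 5.95 in Axin2+/GFP+ and 6.19, 6.22 and 6.59 in Axin2-/GFP- samples. Its groups did not overlap, at a log2 change of -0.57 ± 0.20 (SE, limma adjusted p = 0.0818). Median centring (-0.67) and receptor centring (-0.88) made it pass as lower, whereas quantile normalization gave -0.10 and cyclic loess -0.03. The enzymes that set new methylation had log2 changes of -0.31 for Dnmt3a (adjusted p = 0.391) and 0.18 for Dnmt3b (adjusted p = 0.489). Dnmt3l, the cofactor of germ cells, was at 0.10, and the antisense Dnmt3aos at 0.23. Whether the array tells the strands of Dnmt3a and Dnmt3aos apart was not tested. The last 3 of these changes turned negative after receptor centring (-0.14 for Dnmt3b, -0.22 for Dnmt3l and -0.09 for Dnmt3aos).

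TET genes varied within the groups. Tet3 was at 4.40, 5.66 and 4.09 in Axin2+/GFP+ and 5.02, 4.85 and 5.93 in Axin2-/GFP- samples. Axin2+/GFP+ replicate 2 was above 2 of the 3 Axin2-/GFP- samples, and the log2 change of -0.55 had a standard error of 0.43 (limma adjusted p = 0.371). The other Tet3 feature gave -0.53 with no overlap. Tet2, often mutated in blood cell tumours, had a log2 change of -0.23 (standard error 0.25) and Tet1 of -0.15 (standard error 0.31). The 3 features of Tet1 changed by -0.15, 0.17 and -0.06.

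Enzymes of one subfamily were set against each other within samples, which cancels a shift that is equal for all genes of a sample. It does not cancel a shift that goes with signal. The median log2 change of all genes was 0.25 under a mean of 3 and -0.57 at 5 or more. Pairs of unlike brightness keep that part. The change of the difference was read for 45 pairs, and its groups did not overlap in 22 of them. Among single genes 40.9% of all genes had no overlap in either direction, and no share was computed for pairs of other genes. The count is therefore not read as a result about the subfamilies. All 22 pairs have an exact permutation p of 0.1 (two-sided), the smallest possible here, and, adjusted over the 45 pairs, 0.205. Hdac4 changed by 2.43 log2 units more than Hdac5, by 2.09 more than Hdac9 and by 1.42 more than Hdac7. Kmt5a changed by 1.48 more than Kmt5b. The difference for Kdm6a minus Kdm6b was -1.38, that for Kdm5a minus Kdm5b -1.14 and that for Kdm2a minus Kdm2b -0.84. For Hdac1 minus Hdac2 it was 0.89, with overlap.

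Partners and other enzymes of the same marks are counted beside the same background, 11.4% of all genes lower and 4.64% higher, and 20.6% lower among genes with a mean log2 value of 3 to 5. Of 24 methyltransferases with other symbols 7 were lower and 0 higher in limma, with a median log2 change of -0.31. Ezh2, the Polycomb enzyme of lysine 27 that Kdm6a counters, was at 4.36 ± 0.80 (SD, n = 3) against 6.79 ± 0.24 (SD, n = 3), which is lower by a log2 change of -2.44 (limma adjusted p = 0.00333). Setd2, which trimethylates lysine 36, changed by -1.50 (adjusted p = 0.00292) and Setdb2 by -0.99 (adjusted p = 0.0136). Of 25 Polycomb subunits 9 were lower and 1 higher, with a median of -0.27. The lower ones included the partners of Ezh2, Suz12 at -1.77, Eed at -1.29 and Mtf2 at -2.47; the higher one was Cbx8, at 0.97 (adjusted p = 0.00920).

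Of 15 histone acetyltransferases 5 were lower and 0 higher, with a median of -0.57. The coactivator Ncoa3 changed by -1.35 (adjusted p = 0.00329). Crebbp changed by -1.70 (limma adjusted p = 0.00335) and its relative Ep300 by -1.31 (adjusted p = 0.00493), and Hat1, which acetylates newly made histone H4, by -1.63 (adjusted p = 0.00132). Of 27 scaffolds and partners of HDAC complexes 8 were lower, among them Gatad2b at -1.35, Mta2 at -0.93 and Sap30 at -1.50, and 1 was higher, Rcor3 at 1.13 (adjusted p = 0.0144). Of 12 subunits of KMT2 complexes 2 were lower, Hcfc1 at -1.58 (adjusted p = 0.00379) and Psip1 at -0.78 (adjusted p = 0.0286), and 0 higher. The medians of the last 2 lists were -0.60 and -0.70.

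Of 13 readers and partners of DNA methylation 6 were lower and 2 higher, with a median of -0.66. Apobec1, a cytidine deaminase of RNA, changed by -2.03 (adjusted p = 0.000234) and Zbtb33, or Kaiso, which binds methylated DNA, by -0.95 (adjusted p = 0.00535). Uhrf1, which brings Dnmt1 to replicating DNA, changed by -1.28 (limma adjusted p = 0.0160) and the remodeller Hells by -1.60 (adjusted p = 0.0267). The higher ones were the stress-induced Gadd45a at 1.82 (adjusted p = 0.00350) and Cxxc4 at 0.72 (adjusted p = 0.0269). Of 12 arginine-modifying enzymes 1 was higher, the neutrophil deiminase Padi4 at 1.70 (adjusted p = 0.000960), and 1 lower, Prmt7 at -0.62 (adjusted p = 0.0498), with a median of -0.30.

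Other marker lists were counted beside the same background, 11.4% of all genes lower and 4.64% higher. DNA replication genes had 9 lower and 0 higher of 22, a median log2 change of -0.76 and summed levels of 8.87 to 9.06 against 9.81 to 10.07. Pcna, the sliding clamp of DNA polymerase, changed by -1.59 (limma adjusted p = 0.000733). Mitosis genes had 1 lower of 17 and a median of -0.09. Among monocyte and macrophage markers 1 was higher and 4 were lower of 12, among T and NK cell markers 1 was lower of 11, among erythroid markers 1 was higher and 2 were lower of 8 and among endothelial markers 1 was lower of 10. Osteoblast markers had 4 higher of 8, and of 9 osteoclast and 9 pericyte markers 0 were called in limma, with 1 higher and 1 lower, and 0 higher and 1 lower, at an unadjusted p under 0.05. The osteoclast list shared Mmp9 with the neutrophil list, in which all 16 markers were higher at that level. Col1a1 stood on both the osteoblast and the mesenchyme list. The part of the 17 lower B-lineage markers, the 15 higher neutrophil markers or the replication genes in the falls of the enzyme genes was not tested.

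**Figure D4:**
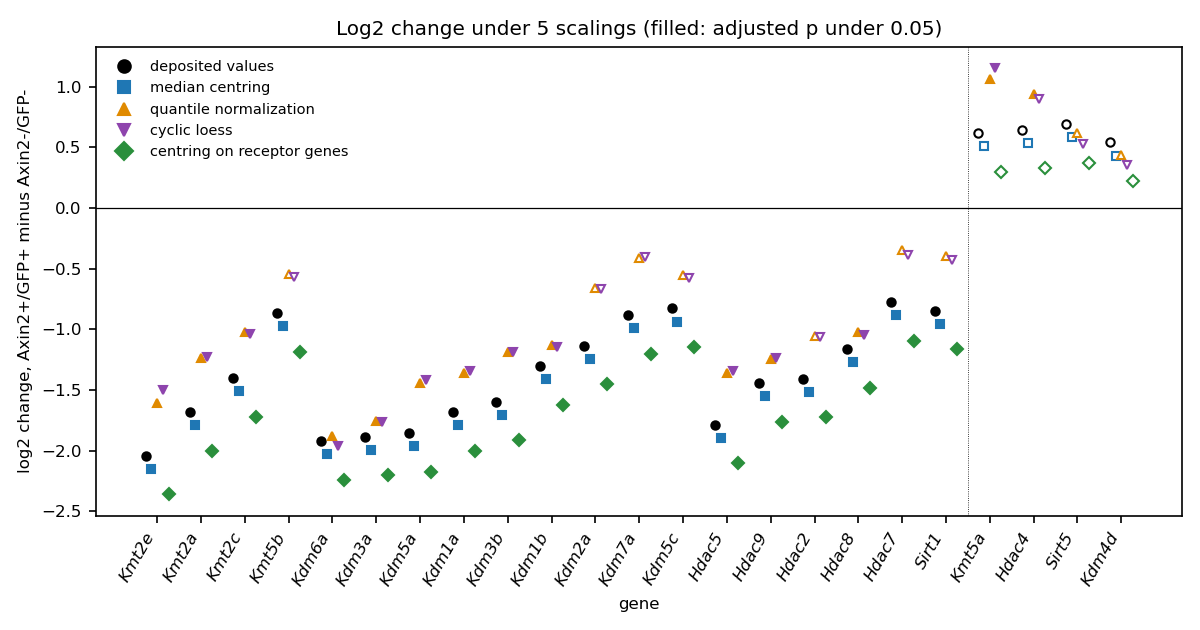
The log2 change (vertical axis) under the deposited values and 4 other scalings is plotted for the 19 lower genes and, right of the dotted line, for Kmt5a, Hdac4, Sirt5 and Kdm4d (horizontal axis), with filled symbols at an adjusted p under 0.05. All 19 stay below 0 and the 4 on the right above 0 in each scaling, and 7 of the 19 lose their call after quantile normalization and cyclic loess.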

How the data were processed

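The deposited file holds log2 expression values per array feature for 6 samples, made by the authors with RMA in R 3.2.1, as the submitters' processing notes have it. Annotation and feature level were not stated there or in the methods. The log2 scale was taken from the range of the values. All columns were used as deposited, with 0 left unmatched to a sample. Of 35557 features 21789 have 1 gene symbol in the platform table and 1621 have several, which were not used. The brightest feature of a gene over all samples was kept, which gave 19938 genes. All 52 enzyme genes matched a RefSeq gene by identifier.

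The comparison used lmFit and eBayes of limma 3.58.1 under R 4.3.3, with Benjamini-Hochberg adjustment over all genes, at a threshold of 0.05. The number of arrays limits the precision. Samples are labelled biological replicates, and p-values measure the spread between them. The genes, lists and tests were chosen with earlier results of these data known. By the naming rule, every called gene and the largest change of each family are given in every sample, with up to 3 called genes of smallest p from each other list of the pathway, while cell type markers were counted. Kmt5a, Hdac4, Sirt5, Kdm4d, Kmt2d, Axin2, Ep300, Uhrf1, Hells, Cxxc4, Cbx8, Rcor3, Col1a1, Col1a2, Col3a1, Six2 and the sex-linked genes were added after their values were seen. The procedure was tested on simulated data. Summed levels are log2 of the sum of linear values over a list.

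Alternatives changed the test (a trend in limma, array weights, a block for the replicate number, the two-sided t-test of the methods), the scaling (median centring, cyclic loess, quantile normalization, receptor centring) or the input: a filter that keeps genes with a mean of at least 3 in a group, the mean of a gene's features and leaving out each sample, with the spread pooled over the rest.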

Additional observations from a re-analysis of the deposited data

How the results depend on the processing

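Of the 19 genes lower in limma, 11 remained so under each of the 15 alternatives other than the methods' t-test, and 5 under all 16. The number of lower genes was 12 under cyclic loess (7.36% of all genes lower), 12 under quantile normalization (6.35%), 5 in the methods' t-test after adjustment (2.60%), 22 after median centring (13.6%), 25 after receptor centring (3980 of 19938 genes) and 14 to 19 with 1 sample left out (6.90% to 10.4%). The number of higher genes was 0 with the deposited values, 1 (Sirt5) with a trend, under the filter on dim genes and with the mean of the features, 2 (Hdac4, Kmt5a) under quantile normalization, 1 (Kmt5a) under cyclic loess and 0 to 1 with 1 sample left out. The median log2 change of the 52 genes was -0.85 after receptor centring, -0.25 under cyclic loess and -0.21 under quantile normalization. The median over all genes, 0.14, became -0.18 after receptor centring, 0.03 after median centring, 0.01 under cyclic loess and 0.06 under quantile normalization, and each of these lay above the median of the enzyme genes. With the replicate block 20 genes were lower and 0 higher. Same-numbered samples of the groups did not deviate together (correlations of 0.03, 0.01 and 0.05), so the numbers were not taken as pairs.

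The sign changed in some setting for 14 of the 52 genes and for 0 of the 19 lower ones. After median centring the log2 changes became -0.0134 (Dnmt3l), -0.0375 (Kdm5d) and -0.106 (Sirt3). After quantile normalization they became -0.0964 (Dnmt3l), 0.0281 (Kdm4b), -0.0645 (Kdm5d) and 0.141 (Sirt7). Cyclic loess gave -0.161 (Dnmt3l), -0.0303 (Hdac6), -0.125 (Kdm5d), -0.0509 (Sirt3) and 0.104 (Sirt7). Receptor centring gave -0.0910 (Dnmt3aos), -0.144 (Dnmt3b), -0.224 (Dnmt3l), -0.112 (Hdac11), -0.113 (Hdac6), -0.248 (Kdm5d), -0.0661 (Kdm8), -0.317 (Sirt3), -0.130 (Sirt4) and -0.0830 (Sirt6). With 1 sample left out the ranges that crossed 0 were -0.259 to 0.343 (Dnmt3l), -0.133 to 0.129 (Sirt3), -0.0230 to 0.159 (Kdm5d), -0.430 to 0.00192 (Tet2), -0.0394 to 0.397 (Sirt4), -0.233 to 0.0422 (Sirt7) and -0.528 to 0.123 (Tet1). The cause of these changes was not tested. Dim genes limit the reading of small changes, as 8 of the 52 had a mean log2 value under 3.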
